A study of Homo sapiens with 12 samples.

Results

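Levels of 9 long noncoding RNAs (lncRNAs) were compared across RNA-Seq libraries of prostate cancer cells, all enzalutamide-resistant, with or without knockdown of the chemokine receptor CXCR7. They were chosen by name, as the rows of the gene table whose symbol is PCGEM1, PCA3, DRAIC, PCAT6, LINC01164, MALAT1, NEAT1, GAS5 or SNHG1, and all 9 were found among the 26439 genes kept. The cells were C4-2B-EnzR (labelled C4-2B MDVr) and LNCaP-EnzR (labelled LNCaP MDVr). LNCaP is a human prostate cancer line that depends on the androgen receptor, and C4-2B is a castration-resistant line derived from it. C4-2B-EnzR was kept in 10 µM and LNCaP-EnzR in 2 µM of the androgen receptor antagonist enzalutamide. Each line was infected with a lentivirus for a hairpin against CXCR7 (shCXCR7) or with the control vector (LKO), and RNA was taken 4 days later, so every group shares resistance, drug and infection. There were 3 libraries per group and 12 in all. Each line is a single established line, and line, drug dose and the P number in the sample titles differ together. The study made 2 hairpins, and the sources used here do not say which was sequenced. The labels do not say whether replicates were separate cultures, and p-values therefore measure only the spread between these libraries, which may be technical.

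MALAT1 and NEAT1 are made from neighbouring genes and stay in the nucleus. MALAT1 collects in nuclear speckles, the stores of splicing factors, and NEAT1 is the scaffold on which paraspeckles assemble. GAS5 and SNHG1 are snoRNA host genes: their introns are cut into small nucleolar RNAs that guide modification of ribosomal RNA, while the spliced exons carry no long reading frame and are removed by nonsense-mediated decay when ribosomes read them. PCGEM1, PCA3, DRAIC and PCAT6 were named from prostate tissue or prostate cancer, and PCA3 is measured in urine as a prostate cancer marker. LINC01164 is an intergenic lncRNA with no role given here.

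Values are RPKM (reads normalised for gene length and for the reads of the library) divided by median-of-ratios factors within each line, and called rescaled RPKM. The libraries held 6380789 to 9832444 reads in genes. LNCaP-EnzR shCXCR7 replicate 3 stood apart, with 27.4% of its reads in genes against 67.0% to 75.5% in the other 11, and with 1636 genes at 0 against 8719 to 9652. Its factor was 0.52, so most values of the 9 RNAs and counts of gene groups that rest on it are given with and without it. CXCR7, listed as ACKR3, had 22.3, 23.8 and 19.01 rescaled RPKM in C4-2B-EnzR shCXCR7 cells against 83.6, 86.9 and 86.3 in LKO cells. It had 56.2, 51.0 and 39.9 in LNCaP-EnzR shCXCR7 cells against 123.3, 118.7 and 112.3 in LKO cells, so every shCXCR7 library was below every control. Luminal markers such as KRT8, KRT18 and EPCAM summed to 509 to 708 rescaled RPKM over 9 genes. Markers of other cells stayed low, with library sums of 0.518 to 13.9 for basal epithelium, 3.60 to 12.1 for fibroblasts, and 4.16 to 11.1 for blood cells. The 4 endothelial markers summed to at most 0.192 outside LNCaP-EnzR shCXCR7 replicate 3 and to 4.02 in it. Of 6 neuroendocrine markers, 1 was expressed enough to be tested. It was SYP, a synaptic vesicle protein, with 4.57, 3.57 and 3.78 rescaled RPKM in C4-2B-EnzR shCXCR7 cells against 0.607, 0.468 and 0.524 in LKO cells. It had 1.47, 1.26 and 1.70 in LNCaP-EnzR shCXCR7 cells against 0.550, 0.697 and 0.339 in LKO cells, and was called higher in both lines, at 2.43 in C4-2B-EnzR and 1.17 in LNCaP-EnzR cells on the log2 scale. Its part in the lncRNA values was not tested.

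Promoter windows of 300 bases, from 250 before to 50 after a transcript start, were taken from RefSeq (GRCh38.p14) for 7 of the 9 RNAs. The windows of MALAT1, PCAT6 and SNHG1 are shown because these are the RNAs with a fall in at least 1 line whose window held a searched motif. Capitals mark the motifs, read on both strands: AGAACA, found in androgen response elements, TGTTTAC, bound by FOXA factors, TATAAA, the TATA box, and GGGCGG, the GC box. The E-box CACGTG was also searched.
MALAT1, the later of its 2 listed starts, chr11:65498795-65499094, + strand: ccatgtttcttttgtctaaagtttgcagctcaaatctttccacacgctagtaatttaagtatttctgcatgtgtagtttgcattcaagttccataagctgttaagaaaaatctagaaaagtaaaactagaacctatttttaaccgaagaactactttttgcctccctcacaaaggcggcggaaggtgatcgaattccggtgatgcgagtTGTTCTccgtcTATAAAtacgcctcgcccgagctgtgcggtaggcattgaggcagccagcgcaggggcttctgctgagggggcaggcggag
PCAT6, chr1:202810704-202811003, + strand: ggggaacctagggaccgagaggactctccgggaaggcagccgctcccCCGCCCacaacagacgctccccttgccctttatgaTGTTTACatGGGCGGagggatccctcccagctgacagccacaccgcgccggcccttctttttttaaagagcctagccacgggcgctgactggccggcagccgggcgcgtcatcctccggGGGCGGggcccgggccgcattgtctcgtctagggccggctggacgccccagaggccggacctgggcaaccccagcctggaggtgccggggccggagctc
SNHG1, chr11:62855836-62856135, - strand: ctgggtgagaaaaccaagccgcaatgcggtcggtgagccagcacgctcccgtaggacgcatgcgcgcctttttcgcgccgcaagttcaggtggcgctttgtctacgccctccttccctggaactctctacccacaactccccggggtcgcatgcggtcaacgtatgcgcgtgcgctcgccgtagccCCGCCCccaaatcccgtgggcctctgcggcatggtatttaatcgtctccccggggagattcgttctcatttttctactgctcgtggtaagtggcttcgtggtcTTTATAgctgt
The MALAT1 window shown held TATAAA beginning at position -30 and AGAACA, on the opposite strand, at -41. The window of the earlier MALAT1 start, chr11:65497488-65497787, is not shown and held several GC boxes and neither TATAAA nor AGAACA. The PCAT6 window held TGTTTAC at -168 and several GC boxes, and the SNHG1 window a GC box at -64 and TATAAA, on the opposite strand, at position 40. Of the 35116 windows in the table, 14.8% held AGAACA, 3.42% TGTTTAC, 11.5% TATAAA, 45% GGGCGG and 7.26% CACGTG, which was in no window of these RNAs. A match is a description of letters and not a binding site.

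MALAT1 fell in LNCaP-EnzR cells after CXCR7 knockdown and was not called in C4-2B-EnzR cells. In C4-2B-EnzR cells it had 507, 436 and 421 rescaled RPKM after knockdown against 658, 464 and 367 in LKO cells. The LKO libraries spread more widely and enclosed the shCXCR7 libraries. It changed by -0.09 on the log2 scale (95% interval -0.53 to 0.36, adjusted p = 0.738 from limma), and it turned to 0.13 without LKO replicate 1.

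In LNCaP-EnzR cells MALAT1 had 700, 477 and 425 rescaled RPKM after knockdown against 1263, 1170 and 1267 in LKO cells, or 534 ± 146 against 1234 ± 55.0 (SD, n = 3 each). Every shCXCR7 library was far below every LKO library. MALAT1 changed by -1.24 on the log2 scale (standard error, SE, 0.21, adjusted p = 0.000912 from limma), which is 42.3% of the control level, and -1.09 without replicate 3. With no filter on low values, over 24950 genes, the call was lost (adjusted p = 0.167 from limma). In deposited RPKM, MALAT1 ranked 25, 40 and 33 among all genes in the shCXCR7 libraries, against 5, 8 and 5 in the LKO libraries.

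NEAT1 also fell in LNCaP-EnzR cells and was not called in C4-2B-EnzR cells. In C4-2B-EnzR cells it had 31.2, 29.1 and 35.8 rescaled RPKM after knockdown against 47.6, 32.7 and 24.8 in LKO cells. Here the LKO libraries again enclosed the others, and the log2 fold change was -0.08 (95% interval -0.57 to 0.40, adjusted p = 0.777 from limma), or 0.16 without LKO replicate 1. In LNCaP-EnzR cells it had 35.6, 30.6 and 29.1 rescaled RPKM after knockdown against 67.6, 59.8 and 54.8 in LKO cells, with no overlap. This was a log2 fold change of -0.93 (SE 0.12, adjusted p = 0.000165 from limma), and -0.87 without replicate 3. The gene length behind the NEAT1 values is 22741 bases, close to the whole span of its long isoform, so reads of the short isoform count toward the same value and the isoforms cannot be told apart. In bulk RNA, fewer cells with an RNA and less RNA per cell cannot be told apart either.

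NEAT1 (chr11:65422798-65445540, + strand) and MALAT1 (chr11:65497738-65506516, + strand) lie 52.2 kb apart in GRCh38.p14. The ratio of MALAT1 to NEAT1 in RPKM, which no library factor changes, was 16.3, 14.98 and 11.8 in C4-2B-EnzR shCXCR7 cells against 13.8, 14.2 and 14.8 in LKO cells. It was 19.7, 15.6 and 14.6 in LNCaP-EnzR shCXCR7 cells against 18.7, 19.6 and 23.1 in LKO cells. The groups overlapped in both lines on this ratio. Within the C4-2B-EnzR LKO libraries MALAT1 and NEAT1 shared the same order, replicate 1 over replicate 2 over replicate 3.

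MALAT1 took 0.610%, 0.525% and 0.507% of the reads in genes in C4-2B-EnzR shCXCR7 cells against 0.797%, 0.551% and 0.432% in LKO cells. In LNCaP-EnzR cells the share was 1.03%, 0.694% and 0.707% after knockdown against 1.81%, 1.66% and 1.80% in LKO cells. This share needs no scaling factor, and replicate 3 lay beside replicate 2 on it. Reads outside genes moved with MALAT1 and NEAT1 among the C4-2B-EnzR LKO libraries. They were 26.2%, 25.6% and 27.2% of the C4-2B-EnzR shCXCR7 libraries against 31.3%, 26.4% and 24.5% of the LKO libraries, in the order of replicates 1, 2 and 3. Their part in the MALAT1 and NEAT1 values was not tested.

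**Figure D1:**
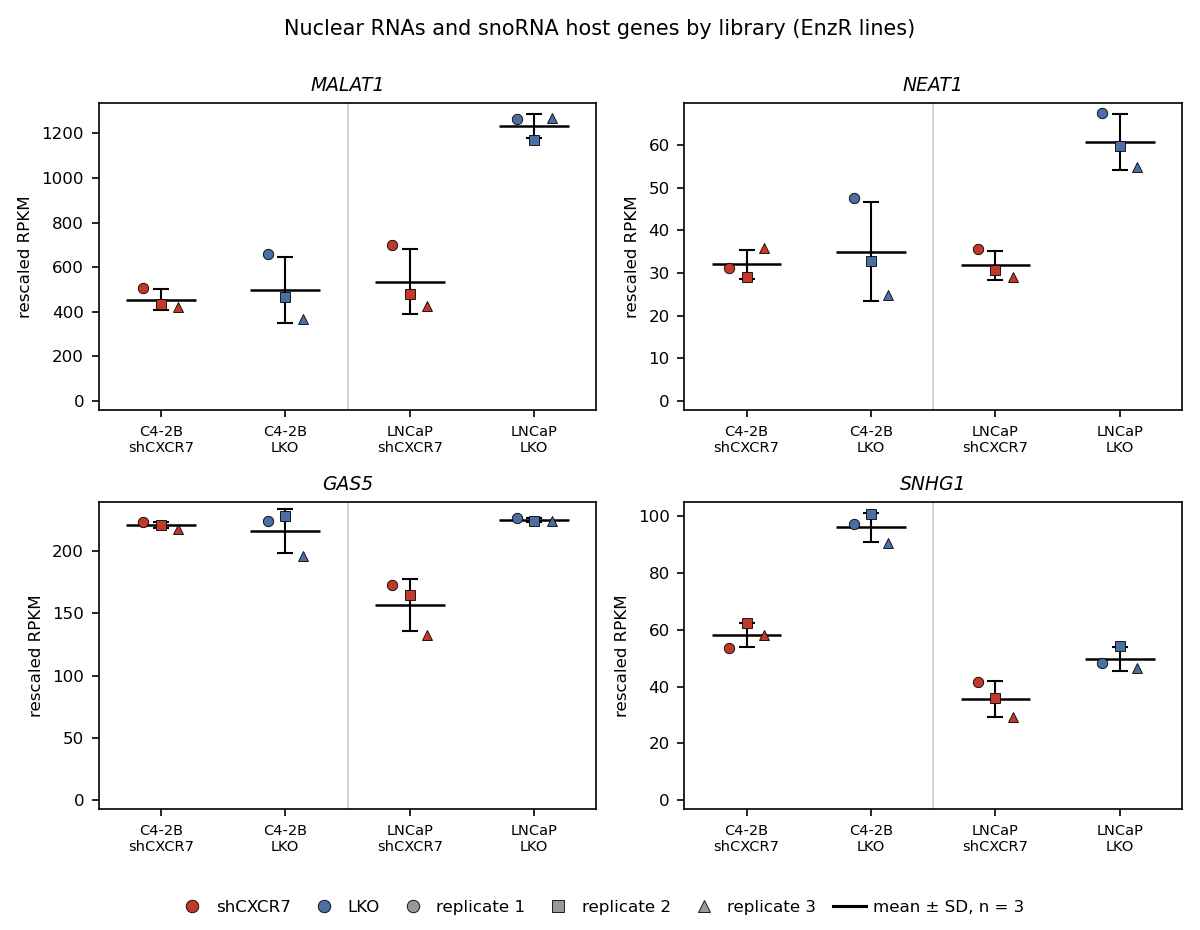
Rescaled RPKM of MALAT1, NEAT1, GAS5 and SNHG1 in each of the 12 libraries, with shCXCR7 left of LKO within each line, points as libraries and bars as mean ± SD. MALAT1 and NEAT1 are separated by knockdown in LNCaP-EnzR cells and overlap in C4-2B-EnzR cells, while SNHG1 is separated in both.

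**Figure D2:**
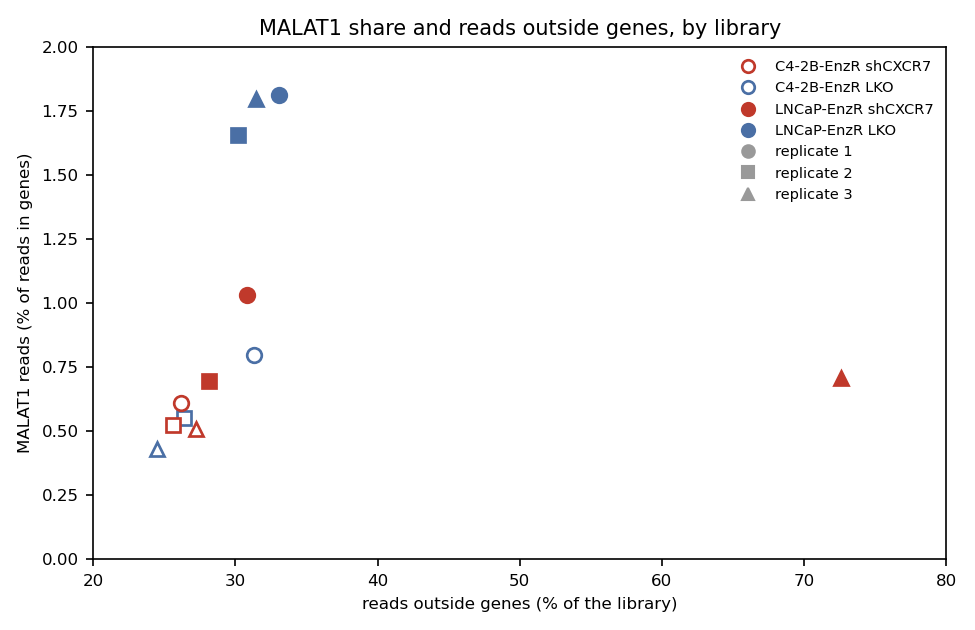
MALAT1 reads as a percentage of reads in genes (vertical axis) against the percentage of reads outside genes (horizontal axis), 1 point per library, open for C4-2B-EnzR and filled for LNCaP-EnzR. LNCaP-EnzR shCXCR7 replicate 3 lies at 72.6% outside genes with a MALAT1 share of 0.707%, close to the 0.694% of replicate 2.

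GAS5, named for its accumulation in growth-arrested cells (chr1:173863901-173869045, - strand), fell in LNCaP-EnzR cells and was not called in C4-2B-EnzR cells. In C4-2B-EnzR cells it had 223.0, 220.8 and 218.1 rescaled RPKM after knockdown against 224.3, 228.5 and 195.8 in LKO cells. The shCXCR7 values sat inside the LKO range. GAS5 changed by 0.03 on the log2 scale there (95% interval -0.15 to 0.21, adjusted p = 0.76 from limma), and it turned to -0.11 with quantile normalization and to -0.04 without LKO replicate 3. In LNCaP-EnzR cells GAS5 had 172.6, 165.0 and 133.0 rescaled RPKM after knockdown against 226.9, 223.9 and 224.5 in LKO cells. The LKO libraries lay close together, and every shCXCR7 library was below them. The fall was -0.53 on the log2 scale (SE 0.14, adjusted p = 0.0109 from limma), and -0.41 without replicate 3.

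SNHG1 (chr11:62851978-62855885, - strand) fell in both lines. It had 53.7, 62.4 and 58.2 rescaled RPKM in C4-2B-EnzR shCXCR7 cells against 97.1, 100.7 and 90.5 in LKO cells, or 58.1 ± 4.32 against 96.1 ± 5.15 (SD, n = 3 each). The groups were wide apart, with a log2 fold change of -0.72 (SE 0.08, adjusted p = 0.000352 from limma). In LNCaP-EnzR cells it had 41.7, 36.1 and 29.2 rescaled RPKM after knockdown against 48.4, 54.3 and 46.4 in LKO cells. These groups came closer without overlapping, and the log2 fold change was -0.49 (SE 0.13, adjusted p = 0.0161 from limma). It was -0.35 without replicate 3, and without LKO replicate 2 it was -0.43 with an adjusted p of 0.0669 from limma.

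The snoRNAs encoded in the introns of GAS5 and SNHG1 were listed as genes of their own. They are short, and reads of unspliced host RNA over an intron can count toward them, which the table does not separate. Of the 10 GAS5 snoRNAs, all box C/D guides of ribosomal RNA methylation, 9 were called lower in C4-2B-EnzR cells, with a median log2 fold change of -0.997, and 7 in LNCaP-EnzR cells, with a median of -0.60 (also 7, with -0.55, without replicate 3). Of all tested genes, 21.3% were called lower in C4-2B-EnzR and 21.2% in LNCaP-EnzR cells. Over all tested genes the medians were 0.00 in C4-2B-EnzR and -0.02 in LNCaP-EnzR cells. Summed over the 10, they stood at 306 to 361 rescaled RPKM in C4-2B-EnzR shCXCR7 cells against 528 to 644 in LKO cells, with no overlap, while GAS5 itself lay at 0.03 as a log2 fold change there. In LNCaP-EnzR cells the sums were 169 to 235 after knockdown against 340 to 344 in LKO cells.

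SNORD76, a GAS5 snoRNA, had 32.1, 28.2 and 25.8 rescaled RPKM in C4-2B-EnzR shCXCR7 cells against 70.9, 71.6 and 54.1 in LKO cells. Its groups did not overlap, with a log2 fold change of -1.18 (SE 0.13, adjusted p = 0.00033 from limma). SNORD47 had 51.2, 40.5 and 32.9 rescaled RPKM in LNCaP-EnzR shCXCR7 cells against 75.8, 106.1 and 94.2 in LKO cells, a log2 fold change of -1.15 (SE 0.17, adjusted p = 0.000461 from limma), and -0.998 without replicate 3. SNORD77 had the lowest log2 fold change of the 10 in C4-2B-EnzR cells, -1.60, and was at -1.10 in LNCaP-EnzR cells, called in both. These calls rested on few reads. SNORD77 had 5, 5 and 5 reads after knockdown against 21, 13 and 12 in LKO cells of C4-2B-EnzR. In LNCaP-EnzR cells it had 7, 4 and 5 reads against 10, 9 and 8.

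Of the 8 SNHG1 snoRNAs, 6 were called lower in C4-2B-EnzR cells, with a median of -0.97. In LNCaP-EnzR cells their median was -0.32, and the lowest adjusted p from limma was 0.0659 for SNORD22, at -0.53. Without replicate 3 the median was -0.38, and SNORD29 was called higher at 0.68 (adjusted p = 0.0468 from limma). SNORD31 had 23.9, 20.6 and 19.7 rescaled RPKM in C4-2B-EnzR shCXCR7 cells against 50.7, 59.4 and 59.8 in LKO cells, from 20, 16 and 16 reads against 42, 39 and 51. All 3 shCXCR7 libraries were below every control. Among the tests of the difference between lines the lowest adjusted p from limma for a snoRNA of either host was 0.0848, for SNORD76.

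**Figure D3:**
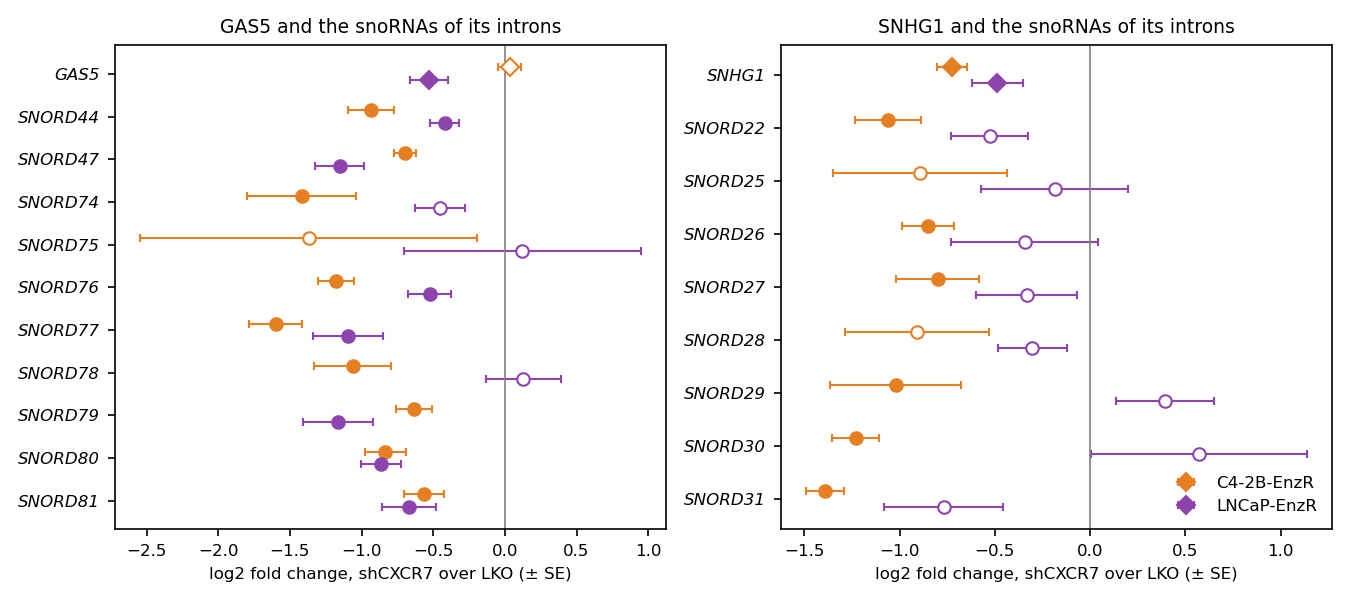
Log2 fold changes, shCXCR7 over LKO, of GAS5 and SNHG1 (diamonds) and the snoRNAs of their introns (circles) with SEs, filled where the adjusted p was under 0.05. In C4-2B-EnzR cells every GAS5 snoRNA lies left of 0 while GAS5 itself lies at 0.03, or at -0.11 with quantile normalization.

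Of 13352 genes tested in C4-2B-EnzR cells, 21.3% were called lower and 20.9% higher at an adjusted p under 0.05. Of the 9 RNAs, 7 passed the filter on low values (0.5 RPKM in at least 3 libraries of the fit), SNHG1 and PCAT6 were called lower and LINC01164 higher. LINC01164 passed the filter only through its shCXCR7 libraries, so it had to differ. Of 13167 genes tested in LNCaP-EnzR cells, 21.2% were called lower and 15.9% higher. There 6 of the 9 RNAs were tested, and MALAT1, NEAT1, GAS5, SNHG1 and PCAT6 were called lower, 5 of 6. On the deposited RPKM without rescaling, where replicate 3 is low in most genes, MALAT1 alone of these kept its call, and the count fell to 1. Without rescaling 371 of all 13167 genes tested were called lower, against 2790 with it. Their median log2 fold change was -0.31 without rescaling, against -0.02 with it. With no filter on low values and replicate 3 included, NEAT1 and SNHG1 kept their calls, and LINC01164 was called higher. Scaling on genes of at least 10 RPKM, chosen after seeing the data, gave 3163 genes higher and 2352 lower in LNCaP-EnzR cells, against 2093 and 2790 with factors from all genes, and 4 of the 5 RNAs kept their calls.

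PCAT6 lay lower after knockdown in both lines, at low read counts. The gene (chr1:202810954-202811912, + strand) starts close to KDM5B, which codes for a histone H3K4 demethylase. In C4-2B-EnzR cells it had 2.98, 1.72 and 0.876 rescaled RPKM after knockdown against 3.22, 3.39 and 4.90 in LKO cells, from 28, 15 and 8 reads against 30, 25 and 47. The highest shCXCR7 library came close to the lowest control without reaching it. PCAT6 was at -1.06 on the log2 scale (SE 0.35, adjusted p = 0.0408 from limma), and the call was lost under 11 of 18 alternatives, with an adjusted p of up to 0.101. These include leaving out any LKO library, or shCXCR7 replicate 2 or 3, with log2 fold changes from -1.17 to -0.67.

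In LNCaP-EnzR cells PCAT6 had 4.12, 3.75 and 6.201 rescaled RPKM after knockdown against 6.39, 6.82 and 9.17 in LKO cells. Replicate 3 was the highest shCXCR7 library and nearly reached the controls. The log2 fold change was -0.66 (SE 0.18, adjusted p = 0.0153 from limma), -0.87 without replicate 3, and -0.52 with an adjusted p of 0.0633 from limma without shCXCR7 replicate 2. The call was lost under 7 of 19 alternatives, with an adjusted p of up to 0.267 from limma on deposited RPKM. KDM5B, 2.53 kb away, was at -0.15 in C4-2B-EnzR and 0.01 in LNCaP-EnzR cells and was called in neither.

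DRAIC (chr15:69561720-69571440, + strand), an lncRNA known for low expression in castration-resistant cells, lay higher in every shCXCR7 library than in any control of the same line and passed the threshold in neither line. In C4-2B-EnzR cells it had 1.05, 0.977 and 0.933 rescaled RPKM after knockdown against 0.722, 0.608 and 0.888 in LKO cells. The groups only just failed to overlap, on 22, 19 and 19 reads after knockdown against 15, 10 and 19 in LKO cells. This gave a log2 fold change of 0.33 (95% interval -0.08 to 0.74, adjusted p = 0.173 from limma). In LNCaP-EnzR cells DRAIC had 2.60, 2.74 and 3.03 rescaled RPKM after knockdown against 2.47, 2.10 and 1.499 in LKO cells. LKO replicate 1 came nearest to the shCXCR7 libraries. The log2 fold change was 0.44 (95% interval 0.09 to 0.80, adjusted p = 0.0522 from limma), and without LKO replicate 1 it was 0.57 with an adjusted p of 0.0193 from limma. Replicate 3 was the highest shCXCR7 library. The ratio of summed reads at rescaled depth was 1.40 (95% exact interval 1.13 to 1.75, counting error only). Without replicate 3 it was 1.33 (1.04 to 1.70).

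LINC01164 was near absent from control cells and present in every shCXCR7 library. The gene (chr10:131772398-131790199, - strand) has a canonical GENCODE transcript of 5 exons and 3384 bases, the same length that its RPKM values imply. In C4-2B-EnzR cells it had 3.02, 1.92 and 7.15 rescaled RPKM after knockdown against 0, 0 and 0.0471 in LKO cells, from 126, 74 and 289 reads against 0, 0 and 2. Every shCXCR7 library was far above the controls, with replicate 3 highest. The ratio of the summed reads, set to the rescaled depth, was 236 (95% exact interval 64.9 to 1952, counting error only). The fitted log2 fold change was 3.82 (SE 0.41). It moved between 2.17 and 7.29 with the pseudocount and with voom on reads, so it is no measure of size. The gene passed the filter there only through its shCXCR7 libraries, so no p-value is given.

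In LNCaP-EnzR cells LINC01164 had 0.487, 0.350 and 1.51 rescaled RPKM after knockdown against 0, 0 and 0.0244 in LKO cells, from 23, 19 and 95 reads against 0, 0 and 1. The 3 shCXCR7 libraries were above every control, and replicate 3 was again highest. The gene stayed under the filter there, with 0.568, 0.418 and 0.787 deposited RPKM after knockdown. The ratio of summed reads was 109 (95% exact interval 19.2 to 4320), and 53.9 (9.16 to 2179) without replicate 3. With no filter its log2 fold change was 1.83 (SE 0.49, adjusted p = 0.0342 from limma), with replicate 3 included. The median over all 24950 genes of that fit was 0.32. Other low genes were also highest in replicate 3, such as FOXB2, at 0, 0.048 and 1.33 rescaled RPKM in the shCXCR7 libraries. TCERG1L had 0.027, 0.048 and 0.638. No fit with this setting left out replicate 3. A count of 0 allows up to 3 reads, or at most 0.093 RPKM of LINC01164 in any library. Its nearest protein-coding neighbours, TCERG1L 461 kb and PPP2R2D 111 kb away, were at 0.12 and 0.20 in C4-2B-EnzR cells and called in neither direction, and PPP2R2D, a phosphatase regulatory subunit, was called higher in LNCaP-EnzR cells at 0.41.

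PCA3 and PCGEM1 were at or near the limit of detection in all groups. In C4-2B-EnzR cells PCA3 had 1, 3 and 4 reads after knockdown against 3, 1 and 2 in LKO cells, a ratio at rescaled depth of 1.29 (95% exact interval 0.39 to 4.49). In LNCaP-EnzR cells it had 0, 5 and 47 reads after knockdown, or 0, 0.0795 and 0.645 rescaled RPKM, against 3, 1 and 4 reads, or 0.0732, 0.0160 and 0.0841 rescaled RPKM, in LKO cells. The 47 reads were in replicate 3, and without it the ratio was 0.80 (95% exact interval 0.21 to 2.78). PCGEM1 (chr2:192749845-192776899, + strand), a prostate lncRNA induced by androgen, was listed at 0 in 11 libraries and at 0.106 deposited RPKM in LNCaP-EnzR shCXCR7 replicate 3.

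PCA3 (chr9:76764436-76787569, + strand) lies inside PRUNE2 on the opposite strand. PRUNE2, whose RNA is known to pair with PCA3, had 12.7, 12.9 and 14.2 rescaled RPKM in C4-2B-EnzR shCXCR7 cells against 5.72, 6.21 and 6.30 in LKO cells. Its groups were wide apart, and it was called higher at 1.09 (SE 0.08, adjusted p = 6.37e-05 from limma). It was not called in LNCaP-EnzR cells, at 0.22, and the difference between the lines was called at 0.88 (adjusted p = 0.00357 from limma). Without strand, reads of PCA3 and PRUNE2 over shared bases cannot be told apart.

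**Figure D4:**
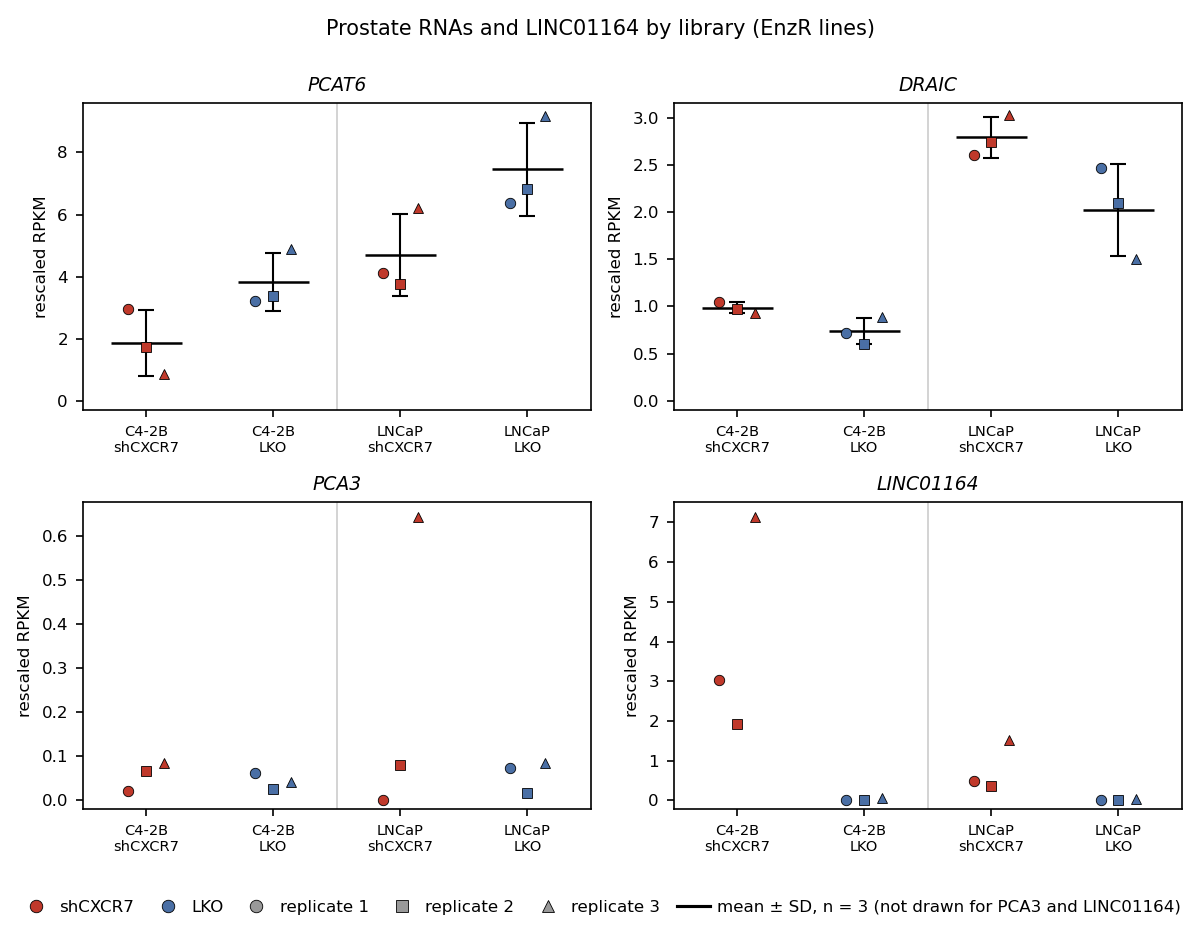
Rescaled RPKM of PCAT6, DRAIC, PCA3 and LINC01164 in each library, with shCXCR7 left of LKO within each line. LINC01164 is above 0 in all 6 shCXCR7 libraries and at most 0.0471 in the 6 LKO libraries, while the only PCA3 value above 0.1 is LNCaP-EnzR shCXCR7 replicate 3.

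The difference of the knockdown effect between the lines was tested as an interaction over 12 libraries, on values scaled over all 12. Of 14202 genes, 5.82% were called with a higher and 4.89% with a lower log2 fold change in C4-2B-EnzR than in LNCaP-EnzR cells. Of the 7 RNAs tested, MALAT1 and GAS5 were called, both with the higher value in C4-2B-EnzR cells. Scaling on genes of at least 10 RPKM turned the balance of all genes to 737 higher and 1183 lower, against 826 and 695, and kept both RNAs called. For MALAT1 the difference was 1.16 (SE 0.30, adjusted p = 0.0277 from limma), and for GAS5 0.57 (SE 0.14, adjusted p = 0.0257 from limma). NEAT1 differed by 0.86 (95% interval 0.29 to 1.42, adjusted p = 0.054 from limma) and missed the threshold. For LINC01164 no difference is given, since with controls at or near 0 in both lines the value depends on the pseudocount.

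For SNHG1, PCAT6 and DRAIC the difference between the lines was not called, at -0.23 (95% interval -0.58 to 0.12), -0.39 (-1.34 to 0.57) and -0.12 (-0.65 to 0.41). The GAS5 call was lost without any 1 of the LNCaP-EnzR LKO libraries, C4-2B-EnzR LKO replicate 3 or C4-2B-EnzR shCXCR7 replicate 1 or 2. Over all leave-one-out fits its difference ran from 0.46 to 0.65, with an adjusted p from 0.0121 to 0.0676 in limma. The MALAT1 call was lost without any 1 of the LNCaP-EnzR LKO libraries, LNCaP-EnzR shCXCR7 replicate 2, C4-2B-EnzR LKO replicate 2 or C4-2B-EnzR shCXCR7 replicate 1 or 2. Its difference ran from 0.95 to 1.38 over these fits, with an adjusted p from 0.00615 to 0.0728 in limma.

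**Figure D5:**
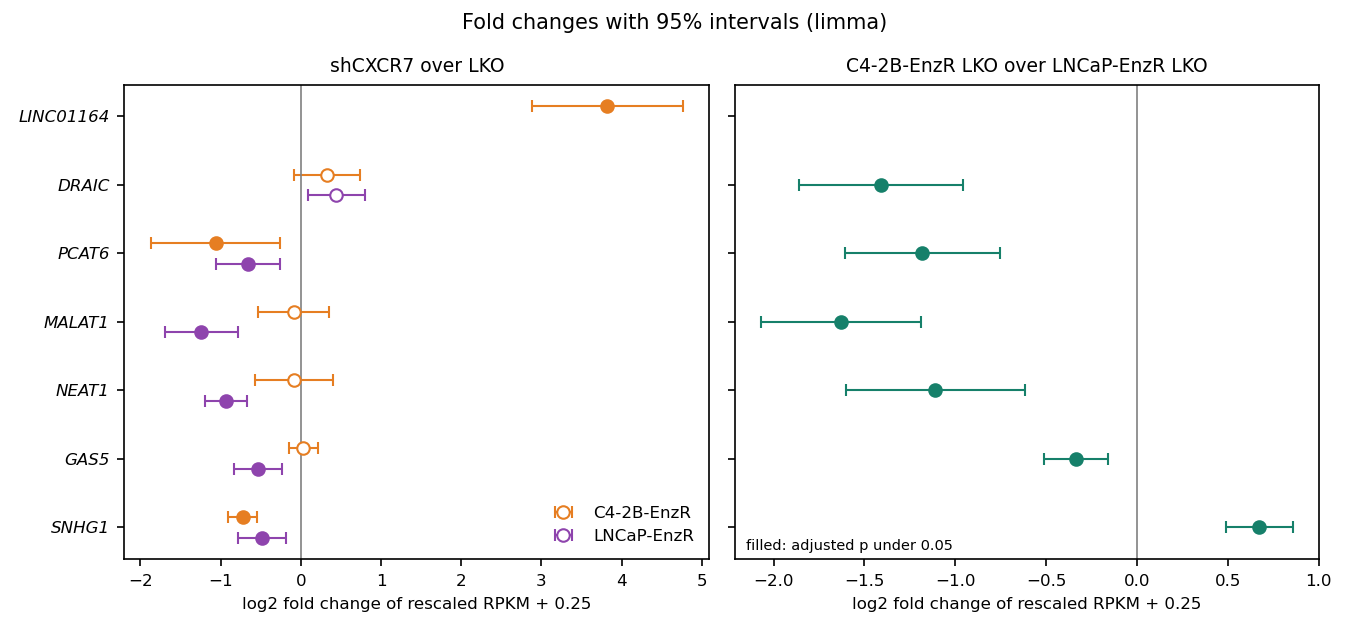
Log2 fold changes with 95% intervals from limma, shCXCR7 over LKO in each line (left) and C4-2B-EnzR LKO over LNCaP-EnzR LKO (right), filled where the adjusted p was under 0.05. The intervals of MALAT1, NEAT1 and GAS5 include 0 in C4-2B-EnzR cells and lie below 0 in LNCaP-EnzR cells, and of the 6 RNAs tested in control cells SNHG1 is the one higher in C4-2B-EnzR. LINC01164 passed the filter in C4-2B-EnzR cells only through its shCXCR7 libraries, so its filled point had to differ from 0.

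In control (LKO) cells the 2 lines differed in every RNA that was tested. Of 13376 genes, 31.8% were called lower and 32.9% higher in C4-2B-EnzR LKO than in LNCaP-EnzR LKO cells, and of the 6 tested RNAs 5 were called lower and SNHG1 higher. On values scaled over 12 libraries, MALAT1 had 597, 421 and 330 RPKM in C4-2B-EnzR LKO cells against 1381, 1281 and 1392 in LNCaP-EnzR LKO cells. The log2 fold change was -1.63 (SE 0.19, adjusted p = 0.000161 from limma). DRAIC followed at -1.41, with 0.655, 0.551 and 0.80 RPKM in C4-2B-EnzR LKO cells against 2.70, 2.30 and 1.65 in LNCaP-EnzR LKO cells. PCAT6 was at -1.18 and NEAT1 at -1.11, with adjusted p of 0.00075 and 0.00219 from limma, and none of these groups overlapped. GAS5 was at -0.34 (adjusted p = 0.00531 from limma) and moved to 0.03 with quantile normalization. SNHG1 was higher, with 88.1, 91.3 and 81.5 RPKM in C4-2B-EnzR LKO cells against 53.0, 59.4 and 50.9 in LNCaP-EnzR LKO cells, a log2 fold change of 0.67 (SE 0.08, adjusted p = 0.000168 from limma).

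In each group the order of levels per length began with MALAT1 and GAS5, each apart from the next. NEAT1 and SNHG1 came after them. In LNCaP-EnzR shCXCR7 cells they overlapped, at 31.8 ± 3.43 for NEAT1 and 35.7 ± 6.25 for SNHG1, while in C4-2B-EnzR cells SNHG1 was higher in all 6 libraries. PCAT6 and DRAIC came next, and LINC01164, PCA3 and PCGEM1 were lowest in LKO cells. In C4-2B-EnzR shCXCR7 cells LINC01164, at 1.92 to 7.15, overlapped PCAT6, at 0.876 to 2.98.

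Related gene groups were counted in the same fits, where 21.3% of all genes were called lower and 20.9% higher in C4-2B-EnzR cells, and 21.2% lower and 15.9% higher in LNCaP-EnzR cells. Without replicate 3 the LNCaP-EnzR shares were 24.4% lower and 21.8% higher. Of 23 other snoRNA host genes tested, 11 were called lower in each line, with medians of -0.33 in C4-2B-EnzR and -0.35 in LNCaP-EnzR cells, and 4 were called higher in C4-2B-EnzR cells. Without replicate 3, 12 were lower in LNCaP-EnzR cells (median -0.32). SNHG6 had 18.2, 19.1 and 19.7 rescaled RPKM in C4-2B-EnzR shCXCR7 cells against 53.2, 60.8 and 63.3 in LKO cells, a log2 fold change of -1.62, and it was at -1.35 in LNCaP-EnzR cells, or -1.30 without replicate 3. SNHG9 was at -1.06 in C4-2B-EnzR and -1.46 in LNCaP-EnzR cells, called in both. Ribosomal protein genes gave 28 called higher and 4 lower of 82 in C4-2B-EnzR cells (median 0.21) and 1 higher and 9 lower in LNCaP-EnzR cells (median -0.21), or 7 higher and 18 lower (median -0.069) without replicate 3. Of 18 nonsense-mediated decay factors, 5 were lower and 1 higher in C4-2B-EnzR cells and 3 lower in LNCaP-EnzR cells, or 4 lower and 3 higher without replicate 3. RBM8A, an exon junction protein, was at -0.50 in C4-2B-EnzR and -0.48 in LNCaP-EnzR cells.

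Of 34 paraspeckle proteins, 8 were lower and 3 higher in C4-2B-EnzR cells and 5 lower and 4 higher in LNCaP-EnzR cells, or 6 lower and 10 higher without replicate 3. Of all genes 21.3% were called lower in C4-2B-EnzR and 21.2% in LNCaP-EnzR cells, and 20.9% and 15.9% higher. CPSF7, a cleavage factor subunit, was at -0.82 and -0.64 in C4-2B-EnzR and LNCaP-EnzR cells, and NONO, a core paraspeckle protein, was called lower in C4-2B-EnzR cells at -0.52 and was at -0.15 in LNCaP-EnzR cells. The difference was -0.37 (adjusted p = 0.148 from limma), and without replicate 3 it was called at -0.51 (adjusted p = 0.00841 from limma). Of 25 nuclear speckle proteins tested, 9 were lower and 1 higher in C4-2B-EnzR cells and 7 lower and 1 higher in LNCaP-EnzR cells, or 8 lower and 2 higher without replicate 3. SRRM2, a speckle scaffold, was at -1.10 in C4-2B-EnzR and -0.67 in LNCaP-EnzR cells. Other nuclear lncRNAs gave 2 lower of 11 in C4-2B-EnzR cells (median -0.15) and 2 lower of 10 in LNCaP-EnzR cells with or without replicate 3 (medians 0.01 and -0.07), near the share of all genes. DLEU2, the host of a tumour suppressor miRNA cluster, was called lower in both, at -0.76 and -0.68.

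Of the other prostate lncRNAs, 1 of 9 was called lower and 1 higher in C4-2B-EnzR cells (median 0.00), and 4 of 10 were lower in LNCaP-EnzR cells (median -0.18), or 5 without replicate 3. CTBP1-AS2 was called lower in both lines, at -0.39 in C4-2B-EnzR and -0.70 in LNCaP-EnzR cells. Between control cells 7 of 9 were lower and 1 higher in C4-2B-EnzR, with a median of -1.35 against 0.00 over all tested genes, of which 31.8% were lower and 32.9% higher. Androgen receptor targets gave 13 lower and 6 higher of 22 in C4-2B-EnzR cells (median -0.36) and 11 lower and 3 higher of 21 in LNCaP-EnzR cells (median -0.42), or 12 lower and 3 higher without replicate 3. The all-gene shares were 21.3% lower and 20.9% higher in C4-2B-EnzR and 21.2% lower and 15.9% higher in LNCaP-EnzR cells. KLK3, which codes for prostate-specific antigen, had 29.3, 33.0 and 27.5 rescaled RPKM in C4-2B-EnzR shCXCR7 cells against 112.7, 101.8 and 94.8 in LKO cells. Replication-dependent histone genes, whose messages end without a poly(A) tail, gave 21 higher and 5 lower of 42 in C4-2B-EnzR cells (median 0.54) and 20 higher and 1 lower of 43 in LNCaP-EnzR cells (median 0.66), or 14 higher and 2 lower of 37 without replicate 3. Their part in the lncRNA values was not tested.

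Genes next to the RNAs were read in the same fits. FRMD8, 9.27 kb from NEAT1, was called in neither line. WDR74, 10.2 kb from SNHG1, was called lower in both, at -0.54 in C4-2B-EnzR and -0.58 in LNCaP-EnzR cells, while SLC3A2, 224 bases from SNHG1, was at 0.09 and 0.05 and called in neither. ZBTB37, which overlaps GAS5 on the opposite strand, was called lower in C4-2B-EnzR cells at -1.02. In LNCaP-EnzR cells it was at -0.65 (adjusted p = 0.12 from limma). Without shCXCR7 replicate 3 it was called lower there too, at -1.02 (adjusted p = 0.00403 from limma). Its difference between the lines was not called, at -0.34, or 0.02 without that replicate.

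The genes whose log2 values ran most like those of a named RNA over the 12 libraries were found among 12139 others with a mean of at least 1 RPKM. The libraries share 4 groups, so Pearson's r describes likeness only. MALAT1 ran with NEAT1 and SLC35E2B (r = 0.96), and SLC35E2B was nearest to NEAT1 (r = 0.96). Nearest to SNHG1 were SUCO, TLE3 and MEPCE (r = 0.97 to 0.98), to GAS5 CCNG2, PSMA3-AS1 and SRSF6 (r = 0.92), and to PCAT6 ABCA11P, CRAT and NAP1L3 (r = 0.93). LINC01164 ran with ACTA1, VIL1 and KRT17 (r = 0.98 to 0.99), which code for skeletal muscle actin, villin and a stress keratin. DRAIC ran with KIF16B and TTLL1 (r = 0.99).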

How the data were processed

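RNA-Seq values came as 1 table of RPKM per gene and library. The authors aligned single-end reads to GRCh38 (STAR, hg38 in the submitters' notes) and computed the deposited RPKM with their own script; annotation, strand setting and RNA selection were not given in the sources used here. Of 26475 lines, 32 held no value and repeated symbols removed 4, leaving 26439 genes. RPKM steps gave whole reads and gene lengths for the 16629 genes above 0 in most libraries (tolerance 0.005 reads), while lengths of genes in few libraries, such as PCGEM1, stay ambiguous. Replicate pairs differed beyond counting noise (chi-square per degree of freedom 1.63 to 19.9), and every library was kept as 1 sample. Exact intervals of summed reads and floors cover counting error only. Intervals of log2 fold changes come from limma and measure the spread between libraries.

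Deposited RPKM were divided by median-of-ratios factors, and log2(value + 0.25) was tested for genes reaching 0.5 RPKM in 3 or more libraries of the fit, with limma 3.58.1 in R 4.3.3 (trended variance), with Benjamini-Hochberg adjustment over all genes and calls at 0.05. Fold changes on this scale understate those of low genes. The authors tested counts with DESeq2; the deposited unit is RPKM, so log values were tested here. Alternatives changed scaling, pseudocount, filter, variance trend, limits, replicate block and libraries, or used voom on recovered reads. Fits were tested on simulated data.

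Named genes are the 9 RNAs, their nearest genes, the 3 genes most like each, and from each list up to 6 with the largest called change and no overlap. These RNAs and lists were chosen with earlier results of these data known. Positions and promoters come from RefSeq, and strands and canonical transcripts from GENCODE 44. A few genes that this rule names are not reported here.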

Additional observations from a re-analysis of the deposited data

Results flagged for a closer look

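The response of MALAT1 to CXCR7 knockdown was called different in the lines by a test of the difference itself. Its log2 fold change was higher by 1.16 in C4-2B-EnzR than in LNCaP-EnzR cells (limma, SE 0.30, adjusted p = 0.0277), and all 3 LNCaP-EnzR shCXCR7 libraries lay below their controls while the C4-2B-EnzR groups overlapped. The call was lost under 11 of 24 alternatives, with adjusted p from 0.00457 to 0.371 over all 24.

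GAS5 was called by the same test, with a log2 fold change higher by 0.57 in C4-2B-EnzR than in LNCaP-EnzR cells (limma, SE 0.14, adjusted p = 0.0257). Its call was lost under 10 of 24 alternatives, with adjusted p from 0.00629 to 0.727.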

How the results depend on the processing

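Among the tested RNAs, 2 lower and 1 higher were called in C4-2B-EnzR shCXCR7 against LKO cells and 5 lower and 0 higher in LNCaP-EnzR cells by limma. The 1 higher was LINC01164, which passed the filter only through its shCXCR7 libraries and so had to differ. Limits of 2-fold and an adjusted p of 0.001 left 0 lower in C4-2B-EnzR and 1 lower in LNCaP-EnzR cells. They left 0 for the difference between lines, and 3 lower and 0 higher between LKO cells. Over all genes they left 342 lower in C4-2B-EnzR and 303 lower in LNCaP-EnzR cells, against 2838 and 2790 in the main fits. For the difference they left 25 higher and 25 lower, against 826 and 695. Between LKO cells they left 936 lower and 1240 higher, against 4251 and 4400. Deposited RPKM left 1 lower in each line and 0 for the difference. All genes then gave 2435 lower in C4-2B-EnzR and 371 lower in LNCaP-EnzR cells, and 20 higher and 33 lower for the difference. Quantile normalization left 1 lower in C4-2B-EnzR cells. For the difference MALAT1 and GAS5 lost their calls with it. Instead LINC01164, whose difference depends on the pseudocount, was called higher and SNHG1 lower. The all-gene counts with it were 2631 lower in C4-2B-EnzR cells, and 887 higher and 881 lower for the difference. With no filter, 1 was lower in C4-2B-EnzR cells, 2 lower and 1 higher (LINC01164) in LNCaP-EnzR cells and 0 for the difference. All genes gave 2604 lower of 20217 in C4-2B-EnzR cells, and 2238 lower and 1578 higher of 24950 in LNCaP-EnzR cells. For the difference they gave 517 higher and 478 lower of 25028. A filter of 2 RPKM gave 0 higher in C4-2B-EnzR and 1 higher in LNCaP-EnzR cells, against 2486 of 10836 and 1697 of 10352 genes. No variance trend left 1 lower in C4-2B-EnzR cells, where 2693 of all genes were lower. With 1 fit of 12 libraries 1 was higher in LNCaP-EnzR cells, where 2473 of 14202 genes were higher. It was LINC01164, which passed the filter only through shCXCR7 libraries, so this call carries no weight. Leaving out 1 library gave 1 to 2 lower and 0 to 1 higher in C4-2B-EnzR cells, where the higher one was LINC01164. In LNCaP-EnzR cells leaving out 1 library gave 4 to 5 lower and 0 to 1 higher. It gave 0 to 3 higher for the difference, LINC01164 among them without LNCaP-EnzR shCXCR7 replicate 3. Between LKO cells 5 were lower and 1 higher in each fit. All genes called lower ran from 2129 to 3016 in C4-2B-EnzR and from 2108 to 3127 in LNCaP-EnzR cells in these fits. Those called higher for the difference ran from 407 to 910. LINC01164 could not be tested in C4-2B-EnzR cells without a shCXCR7 library, since too few libraries then pass the filter. Otherwise the cause was not tested.

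Directions turned for GAS5 in C4-2B-EnzR cells, at -0.11 with quantile normalization and -0.040 without LKO replicate 3 (0.070 without LKO replicate 2), and without LKO replicate 1 for NEAT1 at 0.16 and MALAT1 at 0.13. Without LKO replicate 3 these were -0.31 and -0.29. The difference between lines turned for SNHG1 at 0.10 and DRAIC at 0.19 on deposited RPKM, and for DRAIC at 0.058 without LNCaP-EnzR LKO replicate 3 (-0.26 without LNCaP-EnzR LKO replicate 1). GAS5 turned to 0.028 between LKO cells with quantile normalization.

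Same-numbered shCXCR7 and LKO libraries had deviations correlated at 0.06, 0.06 and -0.11 in C4-2B-EnzR and -0.02, 0.02 and -0.08 in LNCaP-EnzR cells. Not every library correlated best with its own number. With 3 libraries per group this cannot show whether libraries were prepared in pairs, which the labels do not say. With the replicate block, 1 was lower and 1 higher in C4-2B-EnzR cells and 5 lower and 1 higher in LNCaP-EnzR cells. The higher one was DRAIC in LNCaP-EnzR cells. In C4-2B-EnzR cells it was LINC01164, which passed the filter only through its shCXCR7 libraries. There were 3 higher for the difference, and 5 lower and 1 higher between LKO cells. All genes with the block gave 2431 lower and 2269 higher in C4-2B-EnzR and 2835 lower and 2124 higher in LNCaP-EnzR cells. For the difference 611 were higher, and between LKO cells 4150 were lower and 4258 higher. PCAT6 in C4-2B-EnzR cells rested on 8 to 47 reads per library.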
